A study of Mus musculus with 12 samples.

Results

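The heat shock genes are a set of 10 genes, which are the heat shock factor gene Hsf1 and 9 genes of molecular chaperones and their partners (Hspa1a, Hspa1b, Hspa8, Hsp90aa1, Dnajb1, Hsph1, Hspb1, Hspd1 and Hspe1). Their members were chosen by name, as every probe whose transcript accession belongs to one of these symbols. Of the 10 genes, 9 were measured, by 14 of the 39429 probes on the array, and Hspb1, Hspd1, Hsf1, Hsp90aa1, Dnajb1 and Hspa1a had 1 probe each, Hsph1 2, and Hspa8 and Hspe1 3 each. Liver RNA came from 12 female C57BL/6N mice, with 3 mice in each of 4 diet groups, each mouse on an array of its own with 1 dye. All mice were bought at 6 weeks of age and had been on their diet for 6 months. The Ctrl group ate NFD, a normal formula diet whose carbohydrate was corn starch and sucrose. The RS group ate the same diet with resveratrol, a plant stilbene, added to it. For the DJ group, rice of the variety Dongjin took the place of the starch and sucrose. The DJ526 group was given the resveratrol-enriched rice DJ526 in that place, a Dongjin rice that carries the stilbene synthase gene of peanut. DJ526 and DJ therefore differ in a transferred gene as well as in resveratrol, and the amount of resveratrol eaten in RS and in DJ526 was not compared here. The study states that cages, which held 10 mice each, were assigned to the diets. It also states that the mice were divided among the diets at random after acclimation. The labels do not tie a mouse to a cage, so that p-values measure the spread between these mice, which may share a cage.

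Heat shock proteins are chaperones that hold, refold or pass on unfolded proteins. The factor encoded by Hsf1 is kept inactive by chaperones in unstressed cells, and when unfolded proteins draw these away it binds inverted repeats of the unit GAA, the heat shock element, and induces the genes of the inducible chaperones. In liver the same genes are known to follow feeding, body temperature and the daily cycle, and the constitutive chaperones are among the abundant transcripts of hepatocytes.

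Promoter sequences of 7 of these genes were searched for exact matches to paired units of the element. No window was at hand for Hspa8, Hsp90aa1 and Hsf1, and a missing exact match does not show that a gene lacks the element. RefSeq (build GRCm38.p6) gave 10 promoter windows of 300 bases, from 250 before to 50 after a start site, for 7 of the genes, Dnajb1, Hspa1a, Hspa1b, Hspb1, Hspd1, Hspe1 and Hsph1. The search was for a pair of inverted units, GAANNTTC or TTCNNGAA, on both strands, which read the same on either one. A pair was present in 7 of the 10 windows and 6 of the 7 genes, against 15.1% of all 32851 windows, and it was not found in the windows of Dnajb1. A run of 3 alternating units with the same spacing (GAA, TTC and GAA, or TTC, GAA and TTC), which contains overlapping pairs, was present in 4 of the 10 windows (Hspd1, Hspe1 and Hsph1), against 0.603% of all windows. The counts are not of separate sequences. Hspd1 and Hspe1 share their run, Hspa1a and Hspa1b are near copies there, and the windows of Hsph1 overlap and hold the same matches. No correction was made for this beside the shares of all windows. These matches are a description of letters and not of binding. The sequences below are shown because they carry the pairs of the inducible Hsp70 genes, of the small heat shock gene and of the mitochondrial chaperone pair, with capitals for the paired units, each read 5′ to 3′ on the strand named.
Hspd1 and Hspe1, chr1:55088053-55088082, plus strand: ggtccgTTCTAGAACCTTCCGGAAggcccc
Hspa1a, chr17:34972157-34972306, minus strand: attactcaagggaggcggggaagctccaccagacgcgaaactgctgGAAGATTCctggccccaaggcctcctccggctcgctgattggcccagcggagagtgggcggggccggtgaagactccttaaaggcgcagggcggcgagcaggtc
Hspa1b, chr17:34959239-34959388, minus strand: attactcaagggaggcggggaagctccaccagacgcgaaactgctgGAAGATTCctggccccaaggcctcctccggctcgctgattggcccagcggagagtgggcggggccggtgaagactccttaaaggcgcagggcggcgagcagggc
Hspb1, chr5:135887769-135887918, plus strand: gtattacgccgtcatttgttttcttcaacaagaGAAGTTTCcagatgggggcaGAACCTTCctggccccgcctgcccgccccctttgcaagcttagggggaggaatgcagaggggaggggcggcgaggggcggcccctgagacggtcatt
Hsph1, chr5:149636351-149636380, minus strand: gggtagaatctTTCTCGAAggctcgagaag

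Hspd1 and Hspe1 lie head to head on chromosome 1. Between the start site of Hspe1 and 1 start site of Hspd1 lie 215 bases, so that the 30 bases printed are in the windows of both these starts. The other start site of Hspd1 lies within the extent of Hspe1, and its window held no pair. The 150 bases before the start of Hspa1a and of Hspa1b were the same at 149 positions (99.3%), and in both the pair began at position -104 from the start. Hspb1 had pairs beginning at positions -117 and -97. The run of 3 units of Hsph1 began 36 bases after the upstream one of its 2 start sites, inside the transcribed part, and is not printed.

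**Figure D1:**
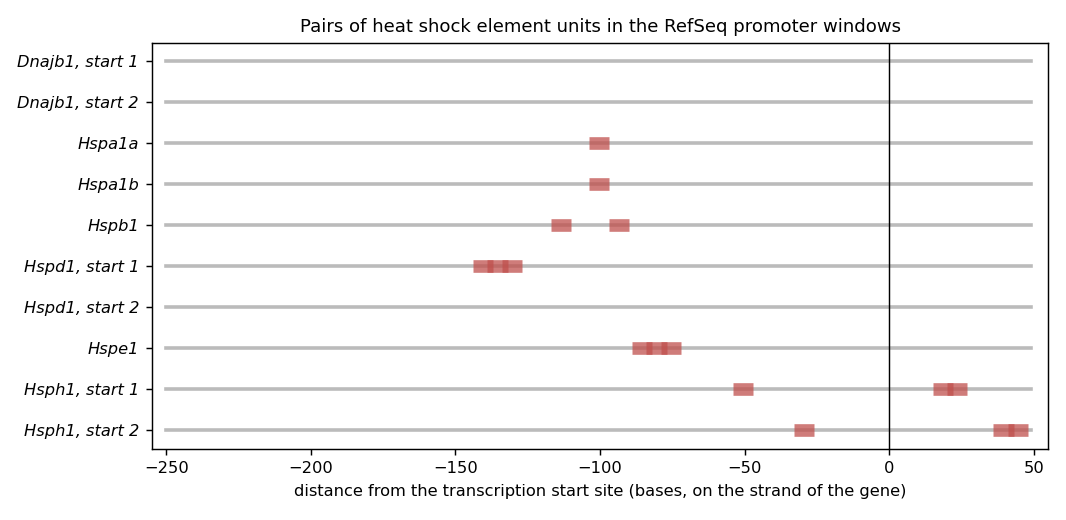
Position of paired heat shock element units in the 10 RefSeq promoter windows of 7 heat shock genes, with the distance from the transcription start site in bases on the horizontal axis (negative before the start) and 1 row per start site. Red boxes are pairs of inverted units and grey lines the 300 bases searched, and boxes lie in 7 of the 10 rows, those of Dnajb1 and 1 start of Hspd1 being the exceptions.

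The 12 arrays had 73.0% to 80.8% of their spots well above background and no saturated spot, and all 14 probes of the heat shock genes were well above background on all 12. Levels are given on a log2 scale against the 75th percentile of processed signals on the same array (902 to 1102 intensity units), so that 0 means a signal equal to that percentile and a step of 1 means a doubling. Levels of different probes are not comparable. The arrays lay on 3 slides of 4. Slide 1 held the 3 Ctrl mice and DJ 1, slide 2 held DJ 2, DJ 3, RS 1 and RS 2, and slide 3 held RS 3 and the 3 DJ526 mice. RS and DJ526 share no slide with Ctrl, so the slide touches each comparison with Ctrl and values within slides are given below. The defining hepatocyte genes of the liver (8 of 8, among them albumin) were above background on every array, with a mean level of 7.74 to 8.01. A difference in bulk RNA cannot tell fewer cells of a type from less RNA per cell.

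Levels of the heat shock genes were highest in Ctrl for 8 of the 9 genes, the exception being Hsf1. The widest difference was that of Hspa1a, the inducible Hsp70, whose mean in DJ was 2.38 times below that in Ctrl. Dnajb1, Hsph1, Hsp90aa1, Hspb1, Hspd1 and Hspe1 in DJ also lay below every Ctrl mouse, with log2 differences between -0.59 (Hsph1) and -0.19 (Hspd1). None of these differences passed the adjusted threshold of 0.05 in limma. In DJ526 the inducible genes Hspa1a, Dnajb1 and Hsph1 differed from Ctrl by -0.18, -0.07 and -0.11 log2 units, and levels of Hspa1a and Dnajb1 did not overlap those of DJ. Leaving out single mice moved these values from -0.36 (without DJ526 2) to -0.07 (without DJ526 1) for Hspa1a, from -0.14 (without DJ526 3) to -0.02 (without DJ526 1) for Dnajb1, and from -0.18 (without DJ526 2) to -0.0023 (without DJ526 1) for Hsph1.

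**Figure D2:**
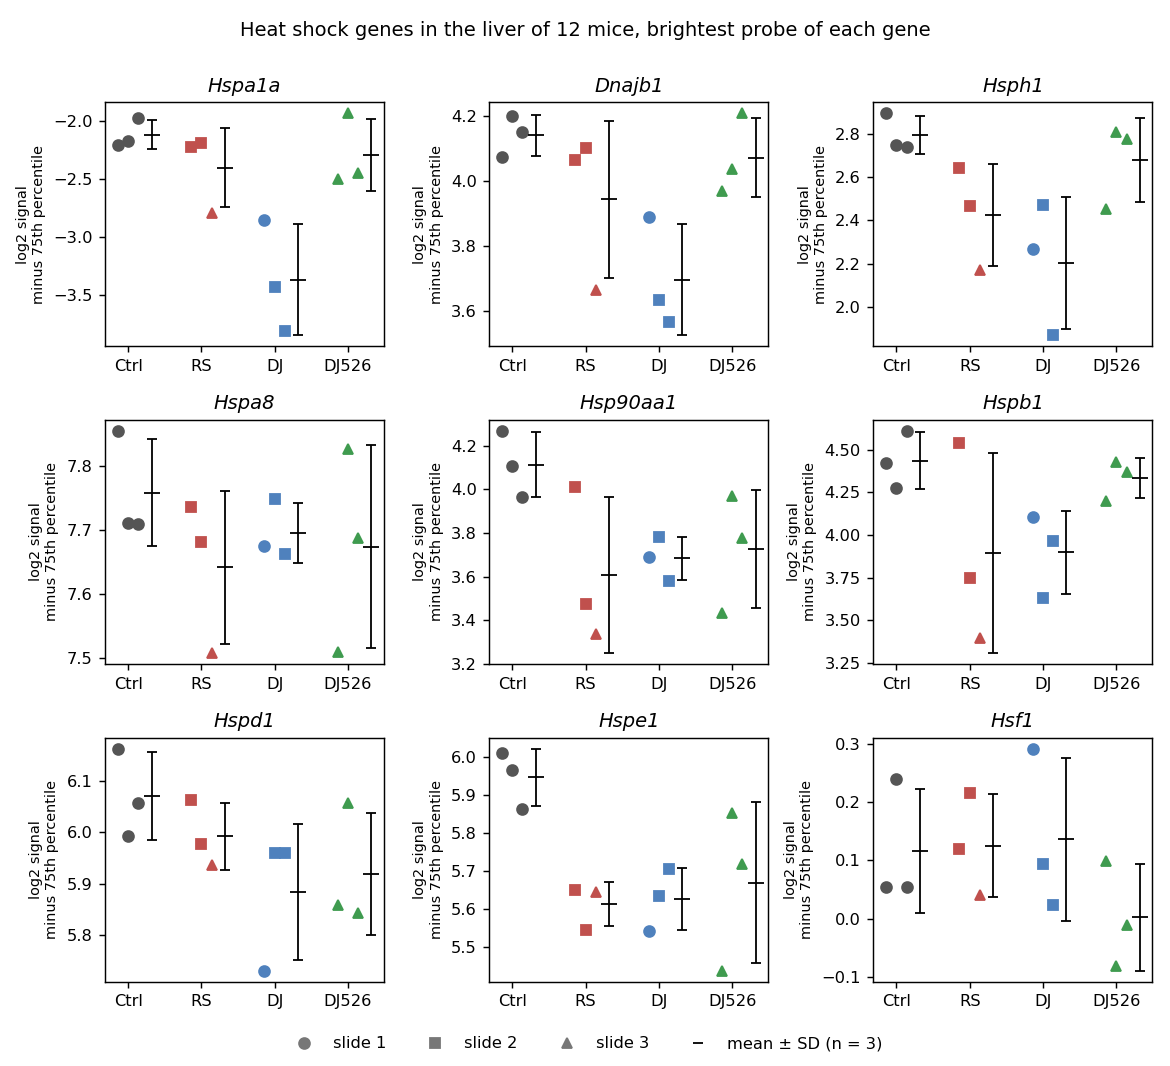
Level of each of the 9 measured heat shock genes in the 12 mice, on the log2 scale with 0 at the array's 75th percentile, in 1 panel per gene with an axis of its own. Colours are the diet groups, marker shapes the slides, and bars the mean ± SD of 3 mice. The DJ mice lie below the other 9 for Hspa1a, and the Ctrl mice lie above the other 9 for Hspe1.

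Hsf1, the gene of the heat shock factor itself (chromosome 15, 76477362 to 76501155), had levels of 0.05, 0.24 and 0.05 in Ctrl mice 1 to 3, 0.12, 0.22 and 0.04 in RS, 0.29, 0.09 and 0.02 in DJ, and 0.10, -0.08 and -0.01 in DJ526. The 4 groups overlapped throughout. Its mean difference from Ctrl was 0.02 in DJ (95% interval -0.19 to 0.23), 0.01 in RS (-0.20 to 0.22) and -0.11 in DJ526 (-0.32 to 0.10, standard error 0.0955, limma adjusted p = 0.692). These intervals reach no farther than 0.32 log2 units from 0, at the precision of 3 mice per group.

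Hspa1a encodes the stress-inducible cytosolic Hsp70 and lies on chromosome 17 (34969359 to 34972156). Its levels were -2.21, -2.17 and -1.97 in Ctrl, -2.23, -2.19 and -2.80 in RS, -2.86, -3.43 and -3.82 in DJ, and -2.50, -1.93 and -2.45 in DJ526. On the linear scale the signal was 0.216 to 0.255 of the 75th percentile in Ctrl and 0.0710 to 0.138 in DJ. The 3 DJ mice were the 3 lowest of all 12, with RS 3 next to them. The log2 difference of DJ from Ctrl was -1.25 (95% interval -1.81 to -0.69, standard error 0.253), with limma adjusted p = 0.640 and p = 0.1 in the exact permutation test, the smallest that 3 mice against 3 allow. Under the normexp background correction this difference was -0.76, and with slide as a fixed block -0.74. DJ526 exceeded DJ by 1.07 (0.52 to 1.63), with limma adjusted p = 0.225, and differed from Ctrl by -0.18 (-0.73 to 0.38, limma adjusted p = 0.832), or by -0.0079 under the normexp correction. Hspa1b, its near copy, had no probe. The coding parts of these 2 genes are nearly the same, and whether the Hspa1a probe also reads RNA of Hspa1b was not tested.

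Hspa8 encodes the constitutive cytosolic Hsp70, Hsc70, which serves folding and transport in unstressed cells (chromosome 9, 40801276 to 40805202). Its brightest probe read 7.85, 7.71 and 7.71 in Ctrl, 7.74, 7.68 and 7.51 in RS, 7.67, 7.75 and 7.66 in DJ, and 7.51, 7.83 and 7.69 in DJ526. All groups overlapped, and DJ526 differed from Ctrl by -0.08 (standard error 0.0923, limma adjusted p = 0.775), DJ by -0.06 and RS by -0.12. The other probes of Hspa8 did not say quite the same. One of them, A_55_P2069721, had all RS, DJ and DJ526 mice below all Ctrl mice, with differences of -0.21, -0.22 and -0.22 (limma adjusted p = 0.851, 0.950 and 0.473). The other, A_52_P12877, lay apart in RS (-0.31) and DJ526 (-0.37) and overlapped in DJ (-0.19). Across the 12 mice the 3 probes correlated with each other at r of 0.627 to 0.861.

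Dnajb1 encodes the J-domain protein Hsp40, which delivers clients to Hsp70 and is induced with it (chromosome 8, 83608175 to 83612653). Levels were 4.07, 4.20 and 4.15 in Ctrl, 4.07, 4.10 and 3.66 in RS, 3.89, 3.63 and 3.56 in DJ, and 3.97, 4.04 and 4.21 in DJ526. As with Hspa1a, the DJ mice lay below every Ctrl and every DJ526 mouse, and RS 3 stood with DJ and apart from the other RS mice. DJ differed from Ctrl by -0.45 (-0.72 to -0.17, limma adjusted p = 0.776). The difference of DJ526 from DJ was 0.38 (0.10 to 0.65, limma adjusted p = 0.401) and that of DJ526 from Ctrl -0.07 (-0.34 to 0.20, limma adjusted p = 0.872).

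Hsph1 encodes Hsp110, which releases nucleotide from Hsp70 and so speeds its cycle (chromosome 5, 149616843 to 149636498). Its brighter probe gave 2.90, 2.75 and 2.74 in Ctrl, 2.64, 2.46 and 2.17 in RS, 2.27, 2.47 and 1.87 in DJ, and 2.46, 2.81 and 2.78 in DJ526. Every RS and every DJ mouse was below every Ctrl mouse, and DJ526 overlapped Ctrl, RS and DJ. The log2 differences from Ctrl were -0.59 in DJ (-0.95 to -0.24, limma adjusted p = 0.776), -0.37 in RS (-0.73 to -0.01, limma adjusted p = 0.812) and -0.11 in DJ526 (limma adjusted p = 0.830). Without RS 3 the RS difference was -0.24. DJ526 exceeded DJ by 0.48 (limma adjusted p = 0.419), and by 0.31 without DJ 3. The dimmer probe gave -0.61 in DJ, -0.46 in RS and -0.27 in DJ526, and in all 3 diets its mice lay below the Ctrl mice. Both probes correlated at r = 0.946 across the 12 mice.

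Hsp90aa1 encodes the inducible cytosolic Hsp90, which matures kinases and nuclear receptors (chromosome 12, 110691036 to 110696395). Levels were 4.27, 4.10 and 3.97 in Ctrl, 4.01, 3.47 and 3.34 in RS, 3.69, 3.78 and 3.58 in DJ, and 3.43, 3.97 and 3.78 in DJ526. DJ lay wholly below Ctrl, while RS 1 and DJ526 2 reached the lowest Ctrl mouse. It was one of 2 genes, with Hspe1, that had an unadjusted limma p under 0.05 against Ctrl on all 3 diets. These differences were -0.51 in RS (limma adjusted p = 0.691), -0.43 in DJ (limma adjusted p = 0.936) and -0.39 in DJ526 (limma adjusted p = 0.459). The DJ526 value was -0.24 without DJ526 1.

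Hspb1 encodes the small heat shock protein Hsp25, which holds unfolded proteins and acts on actin (chromosome 5, 135887919 to 135889563). Levels were 4.42, 4.28 and 4.61 in Ctrl, 4.54, 3.75 and 3.40 in RS, 4.10, 3.63 and 3.97 in DJ, and 4.20, 4.43 and 4.37 in DJ526. The RS mice were the most spread for any heat shock gene (SD 0.586), with RS 1 at the level of Ctrl and RS 3 the lowest of all 12 mice. DJ differed from Ctrl by -0.53 with no overlap (limma adjusted p = 0.949). RS differed by -0.54 with overlap (limma adjusted p = 0.812), a value that was -0.29 without RS 3 and -0.86 without RS 1. DJ526 lay above DJ in all mice, by 0.43 (-0.09 to 0.96, limma adjusted p = 0.572), and differed from Ctrl by -0.10 (-0.62 to 0.42, limma adjusted p = 0.905).

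Hspd1 and Hspe1 encode Hsp60 and Hsp10, the chamber and lid of the chaperonin that folds proteins inside mitochondria. For Hspd1 (chromosome 1, 55077833 to 55088243) the levels were 6.16, 5.99 and 6.06 in Ctrl, 6.06, 5.98 and 5.94 in RS, 5.73, 5.96 and 5.96 in DJ, and 5.86, 6.06 and 5.84 in DJ526. For Hspe1 (55088148 to 55091317) the brightest probe gave 6.01, 5.97 and 5.86 in Ctrl, 5.65, 5.55 and 5.64 in RS, 5.54, 5.63 and 5.70 in DJ, and 5.44, 5.85 and 5.72 in DJ526. Among the brightest probes, that of Hspe1 was the one whose Ctrl mice lay above all 9 others. A dimmer probe of Hspa8 and the dimmer probe of Hsph1 showed the same, and the other probes of Hspe1 did not.

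The differences of Hspe1 from Ctrl were alike on the 3 diets, at -0.33 in RS (limma adjusted p = 0.610), -0.32 in DJ (limma adjusted p = 0.798) and -0.28 in DJ526 (limma adjusted p = 0.353), the last being -0.16 without DJ526 1. Its other 2 probes gave smaller values, -0.15 and -0.14 in RS, -0.24 and -0.23 in DJ and -0.20 and -0.10 in DJ526, with overlap in RS and DJ526. Hspd1 differed by -0.19 in DJ (limma adjusted p = 0.950), with DJ 1 the lowest mouse and a value of -0.11 without it, by -0.08 in RS and by -0.15 in DJ526 (limma adjusted p = 0.556). By the brightest probes the difference from Ctrl was wider for Hspe1 than for Hspd1 on each diet, but in DJ526 the Hspe1 probe at -0.10 lay closer to 0 than Hspd1, and the difference between the 2 genes was not tested.

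**Figure D3:**
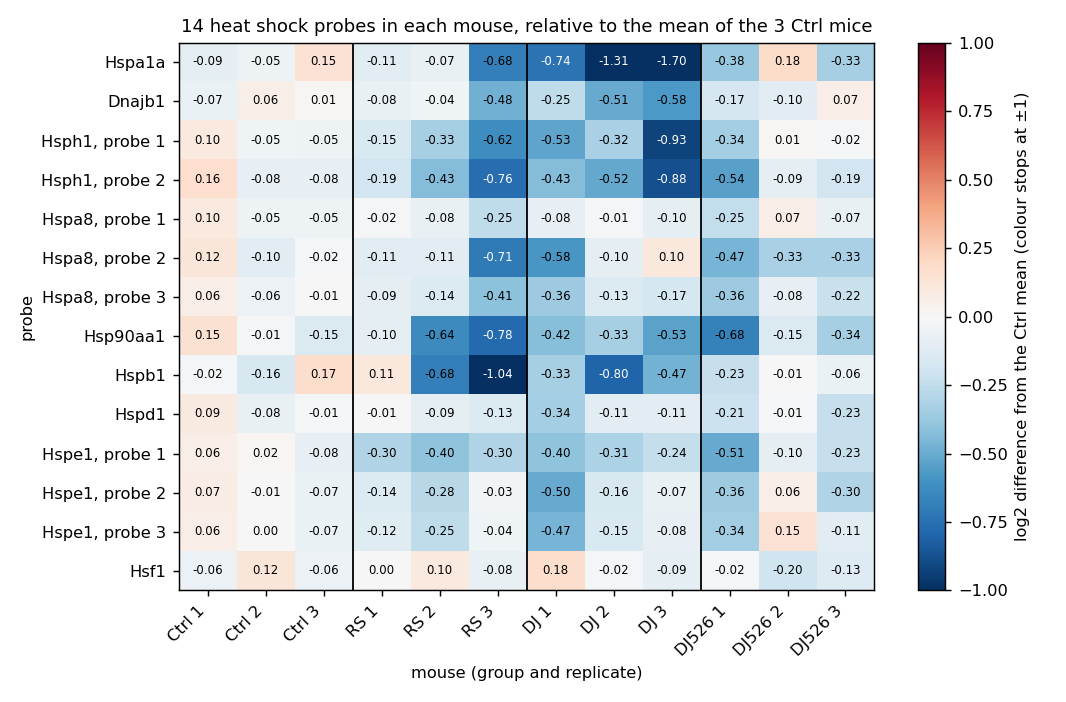
Each of the 14 heat shock probes (rows) in each of the 12 mice (columns), as the log2 difference from the mean of the 3 Ctrl mice, with blue below and red above that mean. Hspa1a in DJ 1 to 3 reads -0.74, -1.31 and -1.70, Hspb1 in RS 3 reads -1.04, and Hsf1 stays within 0.20 of the Ctrl mean in all mice.

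Seen mouse by mouse, low levels of several heat shock genes met in some animals. In DJ 3 and in RS 3, 5 of the 9 genes were among the 3 lowest arrays, in DJ 1 and DJ526 1 it was 4, and in the 3 Ctrl mice and RS 1 it was 0. Within RS, mouse 1 had a median rank of 9 of 12 over the genes and mouse 3 a median rank of 3. Within DJ526, mouse 2 had a median rank of 9 and mouse 1 of 4. The order of the group means was Ctrl, DJ526, RS, DJ for Hspa1a, Dnajb1 and Hsph1, and Ctrl, DJ526, DJ, RS for Hsp90aa1, Hspb1 and Hspe1. Neighbours in the order did not overlap for RS over DJ in Hspa1a, DJ526 over DJ in Hspb1 and Ctrl over DJ526 in Hspe1, and all other neighbours overlapped.

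The comparison of DJ with Ctrl asks what rice in place of starch and sucrose does. Of the 39429 probes limma called 0 (0%) at an adjusted p under 0.05, and 0 of the 14 heat shock probes. At an unadjusted p under 0.05 it had 7 of the 14 probes and 6 of the 9 genes lower in DJ, against 2.66% of all probes, and 0 higher, against 2.59%. Groups did not overlap, with DJ lower, for 11 of the 14 probes and 7 of the 9 genes, against 4.99% of all probes. The median difference over the 9 genes was -0.43, against -0.02 over all probes. The count of 7 probes ranged from 5, without Ctrl 1, to 8 when single mice were left out.

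RS against Ctrl asks the same of resveratrol on the starch and sucrose diet. Again limma called 0 probes in all (0%). Unadjusted p-values under 0.05 were found for 5 of the 14 probes and 4 of the 9 genes (Hspe1, Hsp90aa1, Hspb1 and Hsph1), all lower in RS, against 2.14% of all probes, and 0 were higher, against 3.86%. RS lay below Ctrl without overlap for 5 probes, or 2 genes by their brightest probe, against 4.33%. The median over the genes was -0.29, against 0.03 over all probes. This count leaned on single mice, being 1 without RS 3 or without Ctrl 1, 2 without RS 2, 3 without Ctrl 3 or DJ526 3, and 6 without RS 1.

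For DJ526 against Ctrl limma called 2 probes in all (0.00507%), both lower and neither a heat shock gene. All 9 genes had a mean below Ctrl, against 47.2% of all probes, with a median of -0.11 against 0.02 over all probes. At an unadjusted p under 0.05 there were 2 of the 14 probes, those of Hspe1 and Hsp90aa1, both lower, against 4.46% of all probes, and 0 were higher, against 6.37%. In DJ526 4 probes, of 3 genes when any probe counts and of 1 gene (Hspe1) by the brightest probe, lay below Ctrl without overlap, against 8.35%. The count of 2 was 0 without Ctrl 1 or DJ526 1, 1 without Ctrl 2, DJ 2, DJ 3, RS 2 or DJ526 3, 3 without DJ 1, 4 without RS 3 and 5 without DJ526 2. The 3 comparisons share the Ctrl mice, so that a high Ctrl mouse lowers all of them together.

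**Figure D4:**
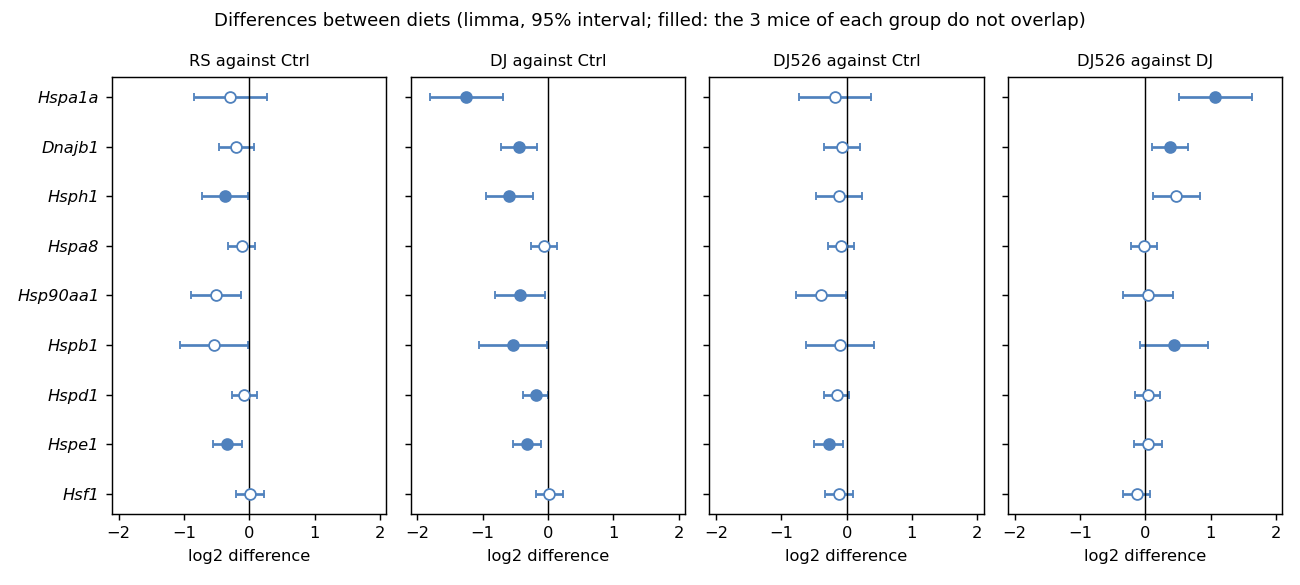
Log2 difference of each heat shock gene, by its brightest probe, in 4 comparisons of diets, with limma's 95% interval over 3 mice per group, and filled points where the 3 mice of both groups do not overlap. Most points of the 3 comparisons with Ctrl lie left of 0, farthest for Hspa1a in DJ at -1.25, and Hspa1a, Dnajb1 and Hspb1 are filled on the right in DJ526 against DJ.

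DJ526 against DJ compares the 2 rice diets. Here limma called 4 probes in all (0.0101%) and 0 heat shock probes. The genes Hspa1a, Dnajb1 and Hsph1 (3 of 14 probes) had an unadjusted p under 0.05, all higher in DJ526, against 5.63% of all probes. Hspa1a, Dnajb1 and Hspb1 did not overlap, against 12.2%. The median over the 9 genes was 0.04, the same as over all probes, since Hspa8, Hsp90aa1, Hspd1, Hspe1 and Hsf1 lay between -0.13 and 0.05. The count of 3 was 5 without DJ 1 and 2 without DJ 3. DJ526 against RS had 3 called probes in all (0.00761%), and 0 heat shock probes at an unadjusted p under 0.05, against 2.43% of all probes higher and 3.08% lower. With slide as a fixed block it had 5, against 3177 of all 39429 probes in that fit.

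The difference between the effect of resveratrol on rice (DJ526 minus DJ) and on starch and sucrose (RS minus Ctrl) tests whether the 2 effects are unequal. It was positive for 8 of the 9 genes and negative for 1, where 48.5% of all probes were negative, with a median of 0.55 against 0.01 over all probes. At an unadjusted p under 0.05 there were 7 of the 14 probes and 6 of the 9 genes, all positive, against 2.93% of all probes (3.22% negative), and no probe in the whole table passed the adjusted threshold (0%). The widest were those of Hspa1a at 1.36 (0.57 to 2.15, limma adjusted p = 0.545), Hspb1 at 0.97 (0.23 to 1.71, limma adjusted p = 0.704), Hsph1 at 0.85 (0.34 to 1.35, limma adjusted p = 0.573) and Dnajb1 at 0.57 (0.19 to 0.96, limma adjusted p = 0.642). Hsp90aa1 (0.55) and Hspe1 (0.38) followed, with limma adjusted p = 0.813 and 0.722. Leaving out single mice gave 5, without DJ526 2, to 8 probes.

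Pooled over both carbohydrates, resveratrol against no resveratrol had 0 of 14 heat shock probes at an unadjusted p under 0.05, against 6.48% of all probes higher and 3.57% lower. It had at most 3 when single mice were left out, and 3 with slide as a fixed block, against 3952 of all 39429 probes in that fit. Pooled over resveratrol, rice against starch and sucrose had 1, Hspa1a at -0.57 (-0.96 to -0.18, limma adjusted p = 0.975), against 2.57% of all probes lower. The value was -0.31 under the normexp correction and -0.12 with slide as a fixed block. In that block fit 3 heat shock probes were under 0.05, against 4386 of all 39429 probes. Without the block, the count of 1 was 4 without RS 3 or DJ526 2, and 2 without Ctrl 2, DJ 1, DJ 2 or DJ 3. A test of any difference among the 4 diets had 5 probes of Hspa1a, Hsph1, Hspe1 and Dnajb1 under an unadjusted 0.05, against 7.74% of all probes (3 without Ctrl 1), with Hspa1a at an adjusted p = 0.306 (limma F test).

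Within slides the pattern of DJ could be read from 1 to 3 mice a side. On slide 1, DJ 1 lay below all 3 Ctrl mice for 8 of the 9 genes, the exception being Hsf1, against 24.4% of all probes, with a median of -0.34 (all probes -0.02) and a value of -0.74 for Hspa1a, -0.53 for Hsph1, -0.40 for Hspe1, -0.42 for Hsp90aa1 and -0.25 for Dnajb1. On slide 2, DJ 2 and DJ 3 were both below RS 1 and RS 2 for Hspa1a (-1.41), Dnajb1 (-0.48), Hsf1 (-0.11) and Hspd1 (-0.06), against 15.3% of all probes. On slide 3, the 3 DJ526 mice all lay above RS 3, the single RS mouse there, for 6 genes, against 19.0% of all probes, by 0.94 for Hspb1, 0.51 for Hsph1, 0.50 for Hspa1a, 0.41 for Dnajb1, 0.39 for Hsp90aa1 and 0.17 for Hspa8, and the median over the 9 genes was 0.39 against -0.09 over all probes.

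With slide as a fixed block, DJ against Ctrl is the same comparison of DJ 1 with the 3 Ctrl mice on slide 1 and adds nothing to it. DJ526 against DJ, joined through RS, was 1.92 for Hspa1a, 0.89 for Dnajb1 and 1.28 for Hspb1. DJ526 against Ctrl, which no slide holds together, changed sign for 7 genes in that fit, Hspa1a among them (1.18). That comparison rests on chains across slides, as does RS against Ctrl, which turned for Hspb1 (0.02). RS against Ctrl is there the slide 1 difference of DJ from Ctrl less the slide 2 difference of DJ from RS. It was therefore positive for Hspa1a (-0.74 and -1.41) and Dnajb1 (-0.25 and -0.48) too. RS 3 alone ties DJ526 to the other slides. The part of the slide in these differences was not tested beyond these fits, and no heat shock probe passed the adjusted threshold in them.

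Across the 12 mice the heat shock genes other than Hsf1 tended to vary together. Of the 36 pairs of the 9 genes 29 had a positive Pearson r, and the median was 0.489. Every pair with a negative r included Hsf1, whose r was 0.124 with Dnajb1 and -0.373 to -0.0070 with the other genes. No such median was computed for pairs of other expressed genes. The median was 0.441 after the group means were removed, and 0.502 after the slide means were removed. The pair with the highest r was Hspa1a with Dnajb1, the inducible Hsp70 and its J-domain partner, at r = 0.883 (permutation p = 0.00026, adjusted over the 36 pairs 0.00648) and rho = 0.734 (permutation p = 0.00822, adjusted 0.0504). Without DJ 2 and DJ 3, the mice farthest from the median, it was 0.705, and with group means removed 0.717.

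Hspa8 with Hsp90aa1, the constitutive Hsp70 and the inducible Hsp90, had r = 0.844 and rho = 0.895 (permutation p = 0.00036 and 0.0002, adjusted 0.00648 and 0.0072), and r = 0.730 without RS 3 and DJ526 1. Hsp90aa1 with Hsph1 had r = 0.746 and rho = 0.804. These 2 pairs had adjusted values under 0.05 by both coefficients, while 8 pairs did by Pearson's r and 3 by Spearman's rho. The lowest r was -0.373, of Hsf1 with Hspd1. All genes of a mouse share an array and its scaling, and under quantile normalization the median r was 0.533.

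**Figure D5:**
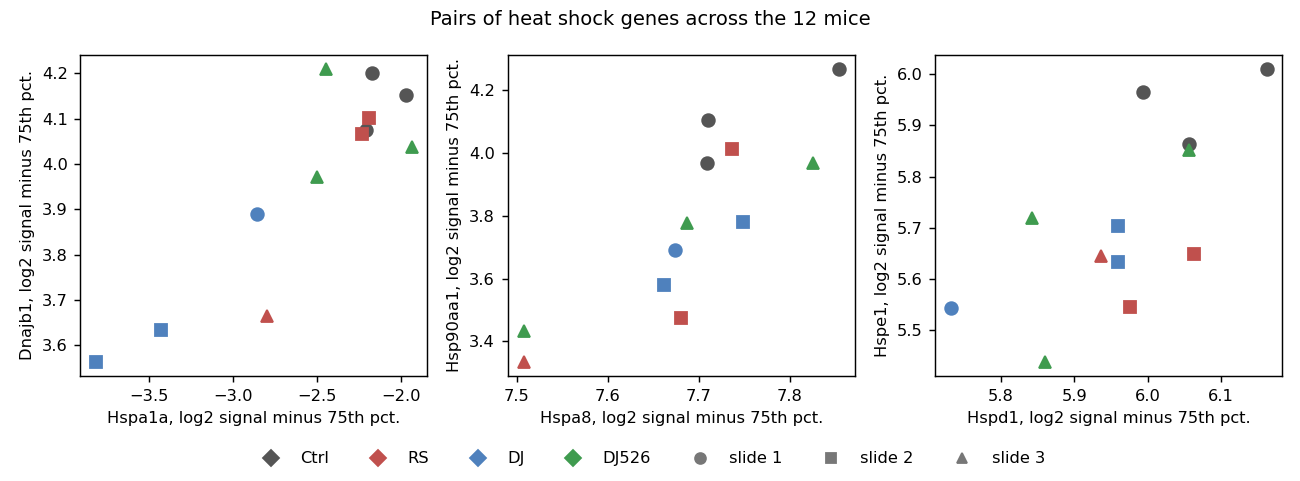
Level of 1 heat shock gene against another in the 12 mice, on the log2 scale with 0 at the array's 75th percentile, for Hspa1a and Dnajb1, Hspa8 and Hsp90aa1, and Hspd1 and Hspe1. Colours are the diet groups and marker shapes the slides, and the 3 pairs had r of 0.883, 0.844 and 0.688.

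Genes whose level followed a heat shock gene most closely were looked for among 15571 genes above background on all arrays, as a description over the 12 mice. For Hsph1 they were Dnaja1 (r = 0.880), a J-domain protein that also works with Hsp70, Nemf (0.878), a factor of ribosome quality control, Bbox1 (0.866), the last enzyme of carnitine synthesis, Slmap (0.858) and Tnfrsf11b (0.837). For Hspd1 they included C1qbp (0.907), a protein of the mitochondrial matrix, Ddo (0.887), Sec31a (0.887), part of the coat of vesicles that leave the endoplasmic reticulum, and Timm17a (0.876), part of the import channel of the inner mitochondrial membrane. With group means removed, r was 0.810 for Dnaja1.

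Other genes of the chaperone network, with genes that mark tissue stress, temperature and time of day (106 genes in 13 lists), had 0 members past the adjusted threshold in limma in each of the 8 comparisons between diets. At an unadjusted p under 0.05, 12 were lower and 0 higher in RS than in Ctrl, 13 were lower and 2 higher in DJ, and 12 were lower and 1 higher in DJ526, against 2.14%, 2.66% and 4.46% of all probes for lower ones. Other stress-induced genes of the heat shock factor had 5 of 11 lower in RS, 5 in DJ and 4 in DJ526, with medians of -0.21, -0.20 and -0.18. Chordc1, an Hsp90 co-chaperone, was among them on each diet, with levels of 1.64, 1.83 and 1.85 in Ctrl and 1.33, 1.51 and 1.23 in DJ and a difference of -0.42 (limma adjusted p = 0.769). Hspa4l, a relative of Hsph1, differed by -0.53 in DJ (limma adjusted p = 0.798). Ubb, a polyubiquitin gene, differed by -0.19, -0.20 and -0.20 in RS, DJ and DJ526.

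The cytosolic chaperonin, which folds actin and tubulin, had all 8 subunit genes below Ctrl on each diet, with medians of -0.13, -0.19 and -0.19 in RS, DJ and DJ526. Of all probes 44.6%, 53.9% and 47.2% were below Ctrl there, and the 3 comparisons share the Ctrl mice. At an unadjusted p under 0.05, 3, 3 and 4 subunit genes were lower, against 2.14%, 2.66% and 4.46% of all probes. The same shares apply to the lower genes of the lists that follow. Cct2 in RS differed by -0.25 (limma adjusted p = 0.578) and Cct5 in DJ526 by -0.18 (limma adjusted p = 0.272). Of the other Hsp70 and Hsp110 genes (10), 1, 2 and 3 were lower in RS, DJ and DJ526 at that threshold, and Hspa14 differed between resveratrol and no resveratrol by -0.22 (limma adjusted p = 0.294). Hspa14 read 1.81 in RS 3 and 1.88, 1.81 and 1.78 in DJ526, all on slide 3. On the other slides it read 2.13 and 1.98 in RS 1 and RS 2, and 2.03 to 2.16 in Ctrl and DJ. The part of the slide in this difference was not tested. Other J-domain genes (13 measured) had 3, 3 and 1 lower, Dnajb6 being 0.64 higher in DJ526 than in DJ (limma adjusted p = 0.374) and Dnajc3 0.40 higher in DJ526 than in RS (limma adjusted p = 0.347). Co-chaperones of Hsp70 and Hsp90 (17) had 3, 2 and 2 lower and 0, 1 and 1 higher, against 3.86%, 2.59% and 6.37% of all probes for higher ones. Bag4 was 0.34 higher in DJ526 than in RS (limma adjusted p = 0.562).

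Other Hsp90 genes (3) had 1 lower in RS, Hsp90ab1 at -0.18 (limma adjusted p = 0.779), and Trap1 of mitochondria had its smallest limma p for DJ526 against RS, at -0.14 (limma adjusted p = 0.977). Other small heat shock genes (8, of which Hspb3 was above background on no array) had Hspb9 lower in DJ526, at -0.89 against DJ (limma adjusted p = 0.195), and Cryab with a difference between the resveratrol effects of -0.30 (limma adjusted p = 0.813). Hspb9 read -2.71, -2.70 and -2.52 in DJ526 and -2.46 in RS 3, all on slide 3. The mice on the other slides, RS 1 and RS 2 among them, read -1.93 to -1.59. The part of the slide in the Hspb9 difference was not tested. Mitochondrial protein quality control (8 genes) had 0 at an unadjusted p under 0.05 in any comparison, with Clpp at -0.14 in DJ526 against RS and Grpel1 at -0.18 in DJ526 against Ctrl. Chaperones of the endoplasmic reticulum (12) had 10 above Ctrl in DJ, where 53.9% of all probes were below Ctrl, with a median of 0.16 and 0 at an unadjusted p under 0.05. Serpinh1, the collagen chaperone, differed between DJ526 and DJ by -0.26 (limma adjusted p = 0.475). Regulators of the heat shock factor (5) had Hsf2 at 0.18 in DJ against Ctrl (limma adjusted p = 0.949) and Hsbp1, which binds Hsf1, at -0.12 in DJ526 against DJ (limma adjusted p = 0.596).

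Lists that follow stress during tissue collection, temperature and time of day were set beside the heat shock genes. The 11 immediate early genes had 0 at an unadjusted p under 0.05 in any comparison, with medians against Ctrl of 0.14 in DJ, 0.05 in DJ526 and 0.13 in RS. Btg2 had its smallest limma p for DJ against Ctrl, at 0.50 (limma adjusted p = 0.956), and Zfp36 had a difference between the resveratrol effects of -0.58 (limma adjusted p = 0.925). The cold-induced Rbm3 differed between rice and starch by -0.25 (limma adjusted p = 0.975) and Cirbp had a difference between the resveratrol effects of -0.17 (limma adjusted p = 0.957). Of the 12 clock genes, Per2, whose promoter is known to answer to the heat shock factor as well as to the clock, read -0.48, -0.56 and -0.32 in Ctrl, -0.62, -0.45 and -0.30 in RS, -1.33, -1.53 and -1.59 in DJ, and -1.11, -0.42 and -0.55 in DJ526. The DJ mice were the 3 lowest for Per2 as for Hspa1a, with a difference from Ctrl of -1.03 (limma adjusted p = 0.640). Per3 differed between resveratrol and no resveratrol by 0.55 (limma adjusted p = 0.453), and the clock list had at most 2 genes at an unadjusted p under 0.05 in a comparison. The time of day at which livers were taken is not given in the sources used here, and its part in these values was not tested.

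Markers of the other cell types of liver are set beside these values, as the mean level of each list on each array. The hepatocyte list lay at 7.85 to 7.86 in Ctrl, 7.74 to 7.91 in RS, 7.95 to 8.01 in DJ and 7.77 to 7.92 in DJ526. Kupffer cell markers (6 of 7 measured, all above background) lay at 3.58 to 4.40 in Ctrl, 3.36 to 3.79 in RS, 3.27 to 3.84 in DJ and 3.31 to 3.89 in DJ526, with 0 of 6 at an unadjusted limma p under 0.05 on each diet against Ctrl. Red blood cell markers (3 of 4 measured) lay at 1.22 to 2.03 in Ctrl, 0.96 to 1.34 in RS, 0.78 to 1.74 in DJ and 1.00 to 2.16 in DJ526, and lymphocyte markers (5 of 5) at -2.13 to -1.52, -1.73 to -1.23, -1.80 to -0.60 and -1.47 to -0.72, where DJ526 lay above Ctrl in all mice. Endothelial (1.37 to 1.68), stellate cell (-0.51 to 0.07) and bile duct markers (-3.05 to -1.68) overlapped between all groups. Of 4 fat cell markers 1, and of 4 pancreatic acinar cell markers 2, were above background on all arrays. The hepatocyte level was higher in DJ than in Ctrl, while most heat shock genes were lower there. Kupffer cell means were lower than in Ctrl on the other diets, with overlap. No correlation of these markers with the heat shock genes was computed, and their part in the differences was not tested.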

How the data were processed

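The authors deposited, for 12 one-colour arrays of mouse liver RNA, the signal intensity of every spot on a linear scale as Feature Extraction (version 11.5.1.1, per the file headers) wrote it, with background subtracted in the processed signal, and a table of globally normalized intensity values (the processed signal times 1 factor per array). Groups came from the labels of the arrays. A sample list of the study pairs the RS and DJ arrays the other way round from the labels, and the labels were followed. If that list is right, every RS and DJ value given here is exchanged.

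Spots of a probe were averaged without control and outlier-flagged spots, put on the log2 scale, and the 75th percentile of the array subtracted. Of 39429 probes, 69.8% were named through RefSeq accessions. limma (version 3.58.1, R 4.3.3) was fitted with 1 mean for each of 4 groups and a prior that follows the signal, with Benjamini-Hochberg adjustment over all probes (threshold 0.05). Single values were compared by an exact two-sided permutation test, and pairs of genes by 100000 permutations of the mice (Python 3.11.15, numpy 2.4.6, scipy 1.17.1, pandas 2.3.3, figures with matplotlib 3.10.9). A gene was read by its brightest probe. The number of arrays limits the precision.

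Fold changes are given with their statistics where the unadjusted limma p was under 0.05 or the mice of 2 groups did not overlap, and for each gene in DJ526 against Ctrl. Of each other list the 2 genes with the smallest limma p are named, and for Hsph1 and Hspd1 the 5 genes most like them, of which 1 for Hspd1 is not reported here. Ubb was named after its values were seen. The lists were other Hsp70 and Hsp110, Hsp90, J-domain and small heat shock proteins, regulators of the heat shock factor, co-chaperones, the cytosolic chaperonin, mitochondrial quality control, chaperones of the endoplasmic reticulum, stress-induced genes, immediate early, temperature-responsive and clock genes, and cell type markers. Members and lists were chosen with earlier results of these data known. Alternatives were other background corrections, scalings, filters, variance priors, tests and probe summaries, the deposited table, blocks for slide and replicate number, and leaving out each mouse. Blood, behaviour and qRT-PCR measurements were not used here.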

Additional observations from a re-analysis of the deposited data

Results flagged for a closer look

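In the fit without slide, the mean differences with resveratrol had opposite signs on the 2 carbohydrate sources for 3 of the heat shock genes. Every RS mouse lay below the Ctrl mean and every DJ526 mouse above the DJ mean. For Hspa1a and Dnajb1 the RS mice overlapped the Ctrl mice. The 95% intervals of RS against Ctrl reached both sides of 0 for these genes, at -0.84 to 0.27 and -0.47 to 0.07. An effect of opposite direction was therefore not shown for them. The share of all probes that meet this rule was not computed. The difference between the 2 effects was 1.362 log2 units for Hspa1a, from -0.29 on starch and sucrose to 1.07 on rice, 0.8465 for Hsph1 (-0.37 and 0.48), and 0.5742 for Dnajb1 (-0.20 and 0.38). Without RS 3 the effect on starch and sucrose was -0.09 for Hspa1a, -0.24 for Hsph1 and -0.06 for Dnajb1. Tested as an interaction in limma, none passed the adjusted threshold (adjusted p = 0.545, 0.573 and 0.642). The effects on rice also carry the transferred gene of DJ526, and the groups lay on different slides. With slide as a fixed block, RS against Ctrl turned positive for Hspa1a and Dnajb1, so that their 2 differences had the same sign there. Hsph1 kept opposite signs in that fit. Values of 3 mice per group were too few for a search for outlying mice.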

How the results depend on the processing

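No heat shock probe passed the adjusted threshold in any of the 9 comparisons under the alternatives run (217 combinations of comparison and alternative, 0 probes in each), and the smallest adjusted p of the 31 fold changes given was 0.0844. Those fold changes kept their sign under the alternatives run other than the slide, of which the fit to the groups of the comparison alone and the methods' t-test were run for 24 of them. With slide as a fixed block, DJ526 against Ctrl became 1.176 for Hspa1a, 0.953 for Hspb1, 0.6413 for Dnajb1, 0.3627 for Hsph1, 0.2477 for Hsf1, 0.08558 for Hspa8 and 0.03000 for Hsp90aa1, and RS against Ctrl became 0.01566 for Hspb1. RS against Ctrl for Hspa1a and Dnajb1, which is not among the 31, also turned positive in that fit. With slide as a random block (correlation 0.212), DJ526 against Ctrl became 0.05972 for Hspb1, 0.03875 for Dnajb1 and 0.02919 for Hspa1a. The cause was not tested, and DJ526 and Ctrl share no slide.

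With a replicate block, 0 heat shock probes were called in any comparison, as without it, and 7 of 14 had an unadjusted p under 0.05 in DJ against Ctrl. Same-numbered mice did not deviate together (r from -0.273 to 0.258 over 18 pairs, over 0.1 in 4), so the numbers were not read as pairs. Over the whole table the slide block moved the calls in DJ against Ctrl from 0 to 8 probes, in RS against Ctrl from 0 to 1, in DJ526 against RS from 3 to 40, in DJ526 against Ctrl from 2 to 0, in rice against starch from 0 to 3, in the difference between the resveratrol effects from 0 to 17, and in the test among the 4 diets from 2 to 11. Among the 14 heat shock probes it moved the number at an unadjusted p under 0.05 from 7 to 9 in DJ against Ctrl, 5 to 4 in RS against Ctrl, 2 to 3 in DJ526 against Ctrl, 3 to 5 in DJ526 against DJ, 0 to 5 in DJ526 against RS, 1 to 3 in rice against starch, 0 to 3 in resveratrol against none, 7 to 8 in the difference between the resveratrol effects and 5 to 8 in the test among the diets. Over all 39429 probes the same number moved too. In the same order it went from 2071 to 3871, 2367 to 4063, 4269 to 4643, 3879 to 2992 and 2173 to 3177. For the last 4 it went from 1814 to 4386, 3962 to 3952, 2422 to 2602 and 3052 to 3436. The methods' t-test left 1 heat shock probe at an unadjusted p under 0.05 in RS against Ctrl, against 5 in limma. For the normexp correction, spots with a background flag (726 to 1107 per array) were left out. With 3 mice per group, a p above the threshold does not show equal levels.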
